A study of Mus musculus with 16 samples.

Results

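Translation factors are the proteins that start and extend every new protein chain, and the RNA of 58 genes with symbols of such factors was followed here in mouse liver. Members were the genes of the deposited count table whose symbols begin with Eif1, Eif2, Eif3, Eif4, Eif5, Eif6, Eef1 or Eef2. Of 75 genes with such symbols, 17 were left out: processed pseudogenes marked -ps, the kinases of eIF2, the eIF4E-binding proteins, Eef2k, Eef2kmt and the Y-linked Eif2s3y. This left 58 of the 55487 genes in the table. The symbol rule also took in genes that do not encode translation factors in the strict sense. Among them were Eef1e1, a part of the tRNA synthetase complex, and the eEF1A lysine methyltransferases Eef1akmt1, Eef1akmt2 and Eef1akmt3. Another was Eif2c5, annotated as a long noncoding RNA, whose symbol follows the older naming of Argonaute genes. Counts reached 1 or more in at least some libraries for 56 members, and 54 passed the filter on low counts. The 4 others were Eef1a2, listed with 0 or 1 count per library, Eef1akmt3 with 1 to 9 counts, and Eif4e1b and Eif2c5 with 0 counts in all 16 libraries.

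In initiation, eIF4F (the cap-binding eIF4E, the scaffold eIF4G and the helicase eIF4A) recruits an mRNA, eIF2 delivers the initiator tRNA, eIF3 joins these parts to the small ribosomal subunit, and eIF1, eIF1A, eIF5 and eIF5B guide start codon choice and subunit joining. In elongation, eEF1A brings aminoacyl-tRNA, the eEF1B subunits recharge eEF1A with GTP, and eEF2 moves the ribosome along. Tsc1 is a subunit of the tuberous sclerosis complex, which restrains the kinase mTORC1. mTORC1 in turn promotes the translation of mRNAs that begin with a 5′ terminal oligopyrimidine tract (TOP mRNAs), a class that holds ribosomal protein genes and several translation factors.

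PolyA RNA from livers of C57BL/6J mice was sequenced in 4 groups of 4 libraries. These were hepatic Tsc1 knockouts under Gao-binge alcohol feeding (KO-EtOH), wild types under the same alcohol feeding (WT-EtOH), hepatic Tsc1 knockouts on control diet (KO-ctr) and wild types on control diet (WT-ctr), and every sample carried a time of 10 days. The Gao-binge regimen combines chronic ethanol feeding with a binge dose at the end. The sources used here do not name the driver of the hepatic deletion, the deleted exons, or the sex and age of the mice. They also do not say that each library is a separate mouse, so a p-value here sets a difference against the spread of 4 libraries a group, some of which may be technical. Library totals ran from 14750420 to 21757100 counts.

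The targeted gene was lower in the knockouts. Tsc1 had 23.4, 16.8, 16.2 and 17.7 CPM (counts scaled to library size, with TMM factors) in KO-ctr livers, against 24.3, 27.6, 24.9 and 29.7 CPM in WT-ctr livers, and these groups did not overlap (log2 fold change -0.52 ± 0.13, standard error; adjusted p = 0.0147, edgeR quasi-likelihood test). It had 11.8, 14.9, 14 and 16.4 CPM in KO-EtOH livers, against 19.2, 19.8, 18.7 and 15.8 CPM in WT-EtOH livers, where the groups overlapped (log2 -0.36 ± 0.13, adjusted p = 0.0386). With single libraries left out in turn, the control diet call did not hold without KO-ctr 3 or WT-ctr 4 (adjusted p = 0.0531 to 0.0566) and that after ethanol in 9 of 16 settings (adjusted p = 0.0505 to 0.117), and counts over the whole gene do not show how much of the mRNA carried the deletion. Neither call held with total library counts in place of TMM factors (log2 -0.40 and -0.17). Marker mRNAs of several cell types also moved with genotype. Summed over 8 hepatocyte markers the level was 49867 to 102364 CPM in KO-EtOH against 114427 to 134003 CPM in WT-EtOH libraries, and 57938 to 63211 CPM in KO-ctr against 101800 to 119835 CPM in WT-ctr libraries. Albumin carried most of that sum, at 4.84% of all counts in KO-EtOH against 8.34% in WT-EtOH and 3.70% in KO-ctr against 7.97% in WT-ctr libraries on average. Of the 8, 3 were called lower in the knockouts on control diet and 4 after ethanol, the median log2 fold changes were -0.19 and -0.36, and 2 of 8 estimates lay above 0 in each comparison. Summed over 8 cholangiocyte markers it was 195 to 925 CPM in KO-EtOH against 46.4 to 53.7 CPM in WT-EtOH libraries, and 292 to 556 CPM in KO-ctr against 55.6 to 84.2 CPM in WT-ctr libraries, with 4 of 8 called higher on control diet and 7 after ethanol. Summed over 8 macrophage markers it was 152 to 433 CPM in KO-EtOH against 70.3 to 102 CPM in WT-EtOH libraries, and 161 to 227 CPM in KO-ctr against 132 to 192 CPM in WT-ctr libraries, with 1 of 8 called higher on control diet and 7 after ethanol. Summed over 6 markers of dividing cells it was 11.9 to 32.3 CPM in KO-EtOH against 4.38 to 7.94 CPM in WT-EtOH libraries, and 7.09 to 11.5 CPM in KO-ctr against 4.65 to 9.54 CPM in WT-ctr libraries. Of the 5 that were tested, none was called on control diet by edgeR or DESeq2 (1 had an unadjusted p under 0.05) and 5 were called higher after ethanol. None of these markers was at 0 in all libraries, and their part in the results below was not tested. In bulk liver, fewer cells of a type and less RNA per cell cannot be told apart.

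The 58 members together took 0.663 ± 0.0756% of all counts in KO-EtOH livers and 0.774 ± 0.0262% in WT-EtOH livers, and 0.716 ± 0.0358% in KO-ctr livers against 0.829 ± 0.0172% in WT-ctr livers (mean ± SD, n = 4 each). On control diet the shares did not overlap, with 0.668 to 0.749% in KO-ctr and 0.810 to 0.846% in WT-ctr libraries. After ethanol they overlapped, with 0.590 to 0.757% in KO-EtOH and 0.748 to 0.810% in WT-EtOH libraries. Levels per transcript length, as CPM per kilobase of annotated exon averaged over the 16 libraries, ran from 579.6 for Eef1a1 and 380.2 for Eef2 down to 0.103 among tested members for Eif5a2, the minor isoform of eIF5A. After the pair of elongation factors came Eif5a with 119, Eif1 with 80.8, Eif4g1 with 66.4, Eif4b with 60.1, Eif4g2 with 56.8 and Eef1b2 with 53.6 CPM per kilobase. Within eIF3, whose subunits act in a common complex, the mRNA levels spread from 46.9 (Eif3h) and 45.3 (Eif3c) to 3.38 (Eif3j1) and 1.11 (Eif3j2) CPM per kilobase. The exon lengths count every annotated isoform, so a gene with long rare isoforms is understated on this scale.

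Loss of Tsc1 came with lower mRNA of many translation factors, on both diets. On control diet 15 of the 54 tested members were called lower and 2 higher in the knockouts (edgeR quasi-likelihood test, adjusted p under 0.05 over 14346 genes). Among all genes tested, 4.91% were called lower and 7.40% higher. The median log2 fold change was -0.23 over the tested members and 0.01 over all genes, and 50 of 54 members lay below 0. After ethanol 30 members were called lower and 2 higher, where 19.1% of all genes were called lower and 19.6% higher. The median was then -0.29 over the members and -0.01 over all genes, with 48 of 54 members below 0. The compared groups did not overlap for 23 lower and 2 higher members on control diet, and for 24 and 2 after ethanol. Over all 14346 genes they did not overlap for 1469 lower and 1758 higher on control diet. After ethanol this held for 2312 lower and 2237 higher genes. All 15 members called lower on control diet were also called lower after ethanol. They were Eif1, Eif3d, Eif3e, Eif3f, Eif3g, Eif3i, Eif3l, Eif3m, Eif4a2, Eif4b, Eif4h, Eef1a1, Eef1b2, Eef1d and Eef2. The compared groups share no library, but both comparisons came from the same model fitted to all libraries, so they are not fully separate tests. The matching overlap over all genes is not given here. The overlap is therefore not shown to be particular to the members.

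Eif3j1, Eif3d, Eif3m, Eif4a2, Eif2b4, Eif2a, Eif6, Eif1b and Eef1b2 are among the members that share exon bases with a gene on the other strand in the GENCODE M21 annotation. Without the strand setting of the counting, their reads cannot be told apart from those of that gene. Eif4a2, Eef1a1, Eef1b2 and Eef1d are among those that share exon bases with a gene on their own strand. How the counting assigned such reads is not known.

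The number of calls depended on the scaling and on single libraries. With total counts in place of TMM factors, the median of all genes moved to 0.12 on control diet and 0.19 after ethanol, the members' median was -0.11 and -0.08, and 2 and 11 members were called lower, the 2 on control diet being Eef1b2 and Eef2. Of the 11 after ethanol, 3 were elongation factors and 3 were eIF3 subunits. The share of higher calls among all calls was then 83.8% and 76.3%, against 60.1% and 50.6% with TMM. Below 0 then lay 40 of 54 members on control diet and 35 of 54 after ethanol. On control diet the count called higher was 1, Eif4e3, without KO-ctr 1, 3 or 4 or WT-ctr 1, 2 or 4. The count called lower there was 7 without KO-ctr 3, KO-ctr 4 or WT-ctr 1, 8 without KO-ctr 1, and 9 without WT-ctr 3 or WT-ctr 4. After ethanol it was 19 without KO-EtOH 3. KO-EtOH libraries 1 and 2 held less albumin mRNA (3.75 and 3.50% of counts) than KO-EtOH 3 and 4 (5.40 and 6.71%), and without both of them 21 members were called lower and 1 higher after ethanol. The calls of Eif3e, Eif3m, Eif4a2, Eef1b2, Eef1d and Eef2 passed in both comparisons with each of the 16 libraries left out in turn.

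**Figure D1:**
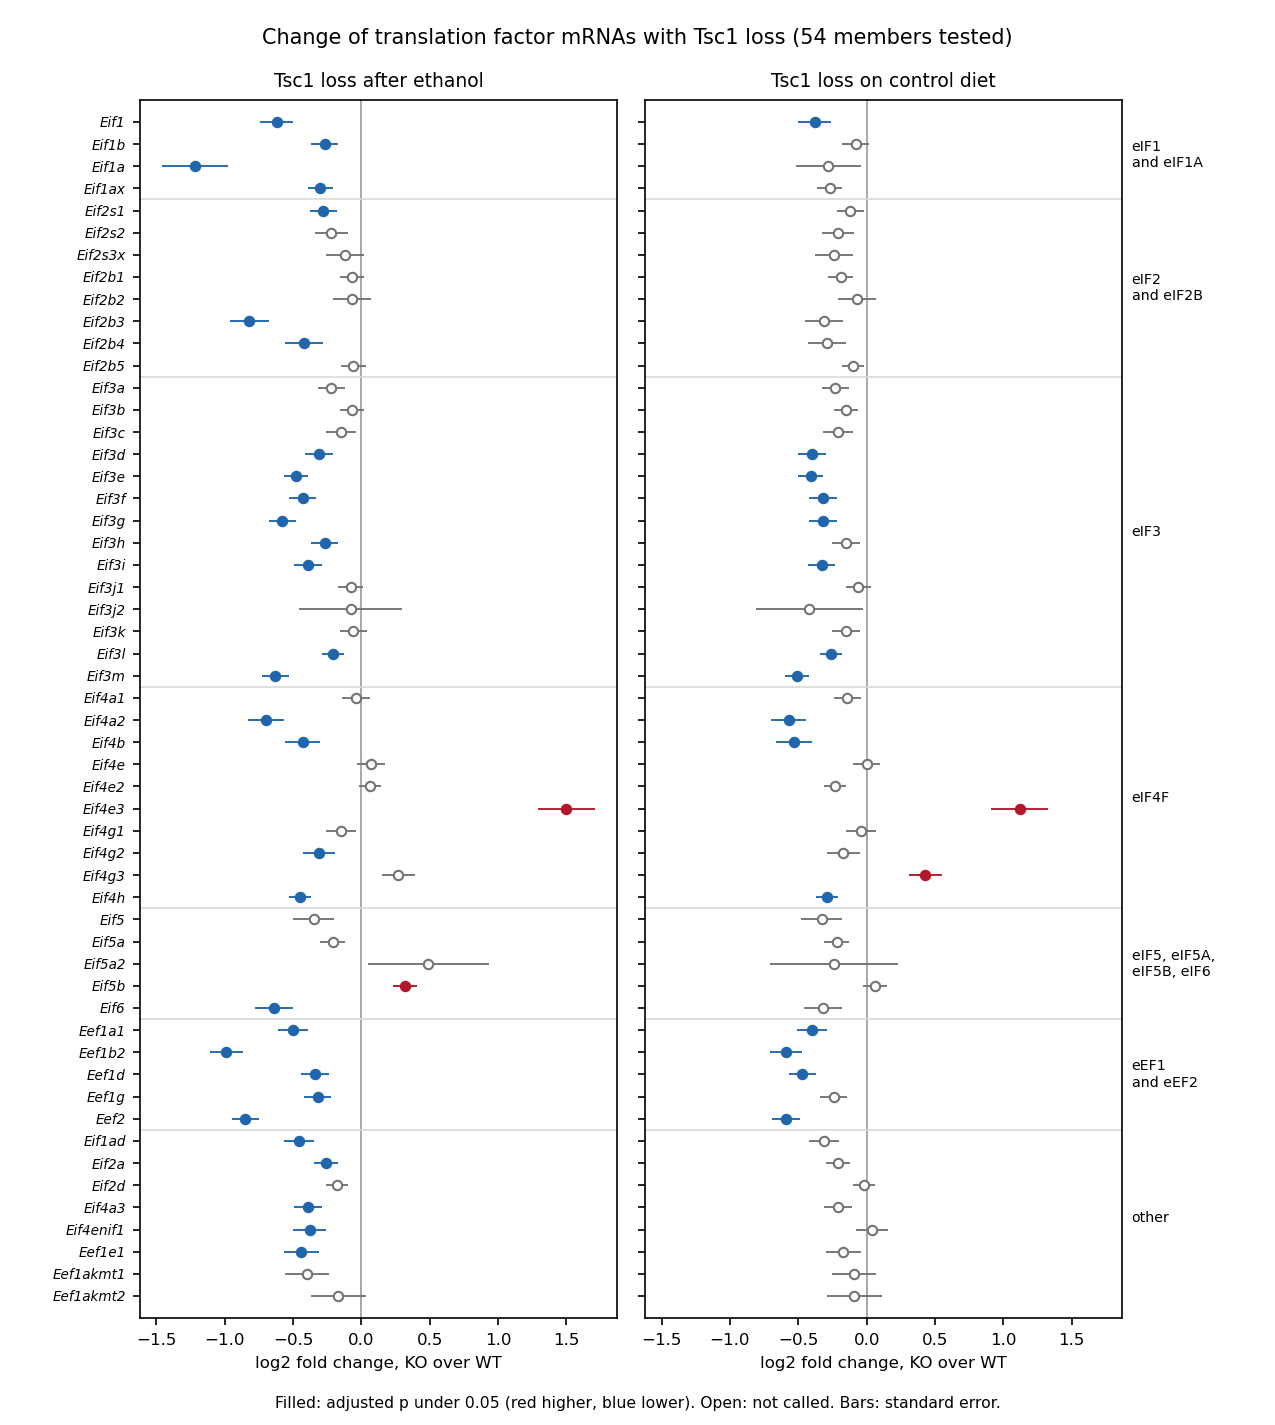
Log2 fold change (knockout over wild type, x axis) of each of the 54 tested members, grouped by complex, after ethanol (left) and on control diet (right). Points are edgeR estimates with their standard errors, and filled points have an adjusted p under 0.05; most points lie left of 0 in both panels, with Eif4e3 far to the right.

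Elongation factor mRNAs were lower in the knockouts on both diets. Of the 5 tested genes for eEF1 and eEF2, 4 were called lower on control diet and 5 after ethanol. The shares called lower over all genes were 4.91% and 19.1%. With total counts in place of TMM factors, 2 of the 5 were called lower on control diet and 3 after ethanol. The summed TMM-scaled level of these genes was 2211 ± 91.0 CPM in KO-EtOH against 3498 ± 144 CPM in WT-EtOH livers (mean ± SD, n = 4 each). On control diet it was 2553 ± 137 CPM in KO-ctr against 3589 ± 261 CPM in WT-ctr livers (mean ± SD, n = 4 each). Eef2, the translocase, had 1101, 1078, 967 and 1024 CPM in KO-ctr livers, against 1715, 1481, 1571 and 1528 CPM in WT-ctr livers. Every KO-ctr library lay below every WT-ctr library, at 0.663 of the wild type level (log2 -0.59 ± 0.10, adjusted p = 0.00121). After ethanol Eef2 had 925, 849, 833 and 877 CPM in KO-EtOH livers, against 1531, 1606, 1503 and 1630.4 CPM in WT-EtOH livers. The gap was again free of overlap, at 0.556 of the wild type level (log2 -0.85 ± 0.10, adjusted p = 1.91e-05).

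Eef1b2, the catalytic subunit of the exchange factor that recharges eEF1A, had 109, 122, 115 and 116 CPM in KO-ctr livers, against 207, 166, 162 and 162 CPM in WT-ctr livers (log2 -0.59 ± 0.12, adjusted p = 0.0038). In KO-EtOH livers it had 99, 92.2, 75.4 and 72.6 CPM, against 155, 190.0, 151 and 176 CPM in WT-EtOH livers (log2 -0.99 ± 0.12, adjusted p = 2.23e-05). Neither pair of groups overlapped, and after ethanol the knockouts held 0.504 of the wild type level. Eef1a1, the most abundant member and the carrier of aminoacyl-tRNA, had 1329, 1334, 1169 and 1308 CPM in KO-ctr livers, against 1878, 1637, 1677 and 1604 CPM in WT-ctr livers (log2 -0.40 ± 0.11, adjusted p = 0.0206). It had 1117, 1075, 1156 and 1281 CPM in KO-EtOH livers, against 1541, 1669.5, 1631 and 1713 CPM in WT-EtOH livers (log2 -0.50 ± 0.11, adjusted p = 0.00172). Both gaps were free of overlap, and the control diet call was lost without KO-ctr 3, KO-ctr 4 or WT-ctr 1 (adjusted p = 0.0525 to 0.0797). The other exchange factor subunits were smaller in change: Eef1d fell by 0.47 and 0.34 on the log2 scale on control diet and after ethanol (adjusted p = 0.0056 and 0.0124). Eef1d shares exon bases on the same strand with Naprt in the GENCODE M21 annotation, and how the counting assigned such reads is not known. Eef1g had 44.3 CPM in KO-ctr against 52.3 CPM in WT-ctr livers, which did not pass (adjusted p = 0.117), and fell to 38 CPM in KO-EtOH against 47.5 CPM in WT-EtOH livers (adjusted p = 0.0144, lost without KO-EtOH 3). Eef1a2, the isoform of muscle and neurons, was at 0 or 1 count in every library.

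**Figure D2:**
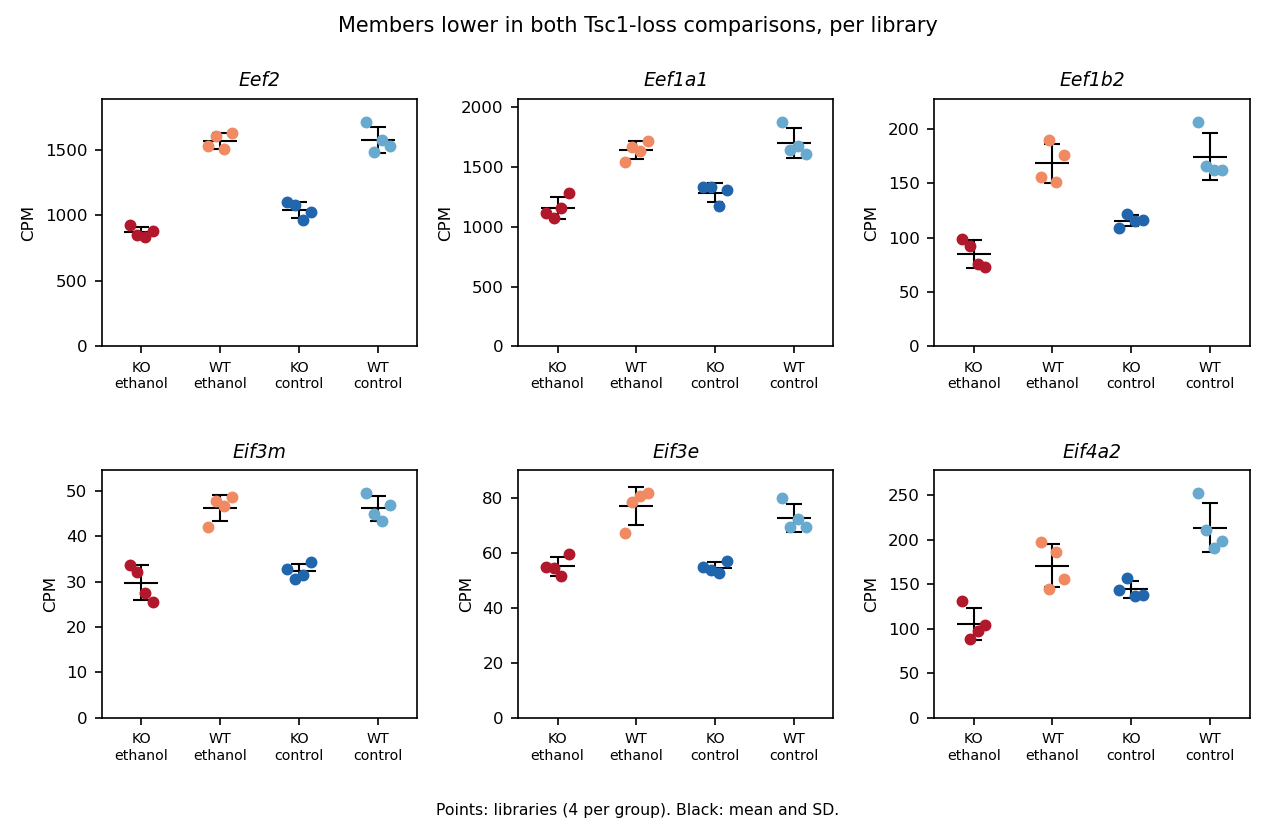
TMM-scaled CPM (y axis, from 0) of 6 members called lower in the knockouts on both diets, 1 point per library, with the group mean and SD in black. In each panel the KO-EtOH points lie below the WT-EtOH points and the KO-ctr points below the WT-ctr points.

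All 5 of these elongation factor genes belong to the TOP mRNAs, as do Eif3e, Eif3f, Eif3h and Eif4b by general knowledge of the class. Of these 9 genes, 7 were called lower on control diet and 9 after ethanol, with median log2 fold changes of -0.41 and -0.43 (2 and 4 called lower with total counts). Of the 45 tested members outside the TOP list, 8 and 21 were called lower, with medians of -0.21 and -0.22. The shares called lower over all genes were 4.91% and 19.1%. The TOP list was drawn up with earlier results of these data known, and 5 of its 9 genes are the elongation factors given above. Its contrast with the other members is therefore not a separate result, and it was not tested. A TOP mRNA begins with a C followed by an unbroken run of pyrimidines (C or T), so the sequence around the start site is shown for 8 members that were lower on both diets, chosen after the runs were seen so that long and short ones are both shown. The windows are from the RefSeq promoter table on GRCm38.p6, which matched 44 of the 58 members, 5′ to 3′ on the mRNA strand, with the longest run that starts with C between 20 bases before and 50 after the annotated start in capitals.
Eef1a1: tggctccgCCCTCTTCCCgagggtggggga
Eef1b2: tgcgtccgagcgCTTTCgttcaactccggc
Eif3f: gttctaggCTCTCTCTCTTTCTCggcaaga
Eif4b: ccgcgccaCCCCCTCgcgctgctttacgaa
Eif3m: cggcaccgCTCTCTTTTCCggtcggcgtgt
Eif3l: ttcttccgCTCTCTCCCacgggcttctgga
Eif3g: cttcctgtCTTTacccgggctgggagctgc
Eif4a2: cgcggaaaCCCCgtaggagcagggcggccg
The windows lie at chr9:78481708-78481737 (minus strand) for Eef1a1, chr1:63176851-63176880 (plus) for Eef1b2, chr7:108934403-108934432 (plus) for Eif3f, chr15:102073775-102073804 (plus) for Eif4b, chr2:105017026-105017055 (minus) for Eif3m, chr15:79075219-79075248 (plus) for Eif3l, chr9:20898583-20898612 (minus) for Eif3g and chr16:23107454-23107483 (plus) for Eif4a2. The run is 15 bases long in Eif3f, 11 in Eif3m, 10 in Eef1a1, 9 in Eif3l, 7 in Eif4b, 5 in Eef1b2 and 4 in Eif3g and Eif4a2. In Eef1b2, a gene of the TOP list, it starts only at base 33 of the annotated transcript. The runs of Eif3m, Eif3g and Eif4a2 start at -20, -14 and -6 from the annotated start. They end before it and so lie outside the annotated mRNA. Those of Eif3f and Eef1a1 start at -4 and -5 and reach across it. Of the members lower on both diets that are not printed, Eif1 had a run of 7 bases, Eif3d of 5 and Eif4h of 4. Such runs are common. A C followed by at least 6 pyrimidines was found in this window in 22 of 56 promoter entries of members (39.3%), in 7 of the 12 entries of members lower on control diet (58.3%) and in 29.5% of all 32851 entries. With at least 5 pyrimidines after the C the shares were 46.4% for members and 44.7% for all entries. Annotated starts can miss the true mRNA end by several bases, so these runs describe the windows only.

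A further run of letters was looked up in the whole 300-base windows. CACGTG, the E-box core bound by factors of the Myc and TFEB type, reads the same on both strands, and it stood in 13 of 56 member entries (23.2%), against 7.15% of all entries. Among members lower on control diet it stood in the entries of Eif3f and Eif4h, among others, and is in capitals in these 30-base stretches before the start site.
Eif4h: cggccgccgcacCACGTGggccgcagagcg
Eif3f: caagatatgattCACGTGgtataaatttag
They lie at chr5:134639488-134639517 (minus strand) and chr7:108934335-108934364 (plus), and the motif begins 96 and 68 bases before the start site. A gene can have several entries, and entries 2, 3 and 6 of Eif5a all held the motif, so the shares do not count separate genes. All entries were taken without regard to expression in liver, so the shares do not show an enrichment particular to the members. Binding was not measured, and members were not compared by this motif.

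Many subunit mRNAs of eIF3, the largest initiation factor, were lower in the knockouts. Of its 14 genes, 7 were called lower on control diet and 8 after ethanol. The shares called lower over all genes were 4.91% and 19.1%. All 14 eIF3 estimates lay below 0 in both comparisons, with medians of -0.29 and -0.25. With total counts in place of TMM factors 0 were called lower on control diet and 3 after ethanol, while DESeq2 called 7 and 9 lower. The summed eIF3 level was 1027 ± 41.6 CPM in KO-EtOH against 1233 ± 70.3 CPM in WT-EtOH livers, and 978 ± 18 CPM in KO-ctr against 1168 ± 30.3 CPM in WT-ctr livers (mean ± SD, n = 4 each). Eif3m, a PCI-domain subunit, had 32.7, 30.5, 31.5 and 34.3 CPM in KO-ctr livers, against 49.6, 44.8, 43.2 and 46.8 CPM in WT-ctr livers (log2 -0.51 ± 0.09, adjusted p = 0.00211). It had 33.7, 32.2, 27.5 and 25.6 CPM in KO-EtOH livers, against 41.9, 47.7, 46.6 and 48.6 CPM in WT-EtOH livers (log2 -0.63 ± 0.10, adjusted p = 1.19e-04). Neither pair of groups overlapped.

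Eif3e, another PCI-domain subunit, had 54.8, 54, 52.9 and 57.3 CPM in KO-ctr livers, against 80.1, 69.4, 72.4 and 69.4 CPM in WT-ctr livers (log2 -0.41 ± 0.09, adjusted p = 0.00478). It had 55.1, 54.7, 51.5 and 59.7 CPM in KO-EtOH livers, against 67.3, 78.6, 81 and 82.1 CPM in WT-EtOH livers (log2 -0.48 ± 0.09, adjusted p = 4.61e-04), again with no overlap. Pseudogenes of Eif3e (Eif3s6-ps1 and Eif3s6-ps2) drew at most 48 counts a library, against 867 or more for Eif3e. Of the remaining called subunits, Eif3d, which can bind the cap of some mRNAs, fell by 0.40 on the log2 scale on control diet and by 0.31 after ethanol. Eif3g and Eif3i, which sit in a module with Eif3b, fell by 0.32 and 0.33 on control diet and by 0.58 and 0.39 after ethanol. Eif3f and Eif3l fell by 0.32 and 0.26 on control diet and by 0.43 and 0.21 after ethanol, and Eif3h by 0.27 after ethanol (adjusted p = 0.0318). With single libraries left out, the control diet calls of Eif3d, Eif3f, Eif3g, Eif3i and Eif3l were lost in 2, 9, 7, 9 and 8 settings (adjusted p up to 0.145), and the calls of Eif3d, Eif3h and Eif3l after ethanol in 3, 8 and 12 settings (adjusted p up to 0.126).

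Other subunits did not pass. Eif3a, the largest subunit and a scaffold of the complex, had 160.2, 171, 177 and 173 CPM in KO-ctr livers, against 171, 211, 213 and 206 CPM in WT-ctr livers, and 211, 205, 189.6 and 223 CPM in KO-EtOH livers, against 260.1, 219, 232 and 254 CPM in WT-EtOH livers. The groups overlapped in both comparisons (log2 -0.23 ± 0.10 and -0.22 ± 0.10, adjusted p = 0.141 and 0.0849). Eif3b, Eif3c, Eif3k, Eif3j1 and Eif3j2 were not called in either comparison. Eif3j1 and the intronless Eif3j2 are near-identical copies, so the split of reads between them is uncertain.

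Within eIF4F, the helicase gene Eif4a2 and the helicase cofactors Eif4b and Eif4h fell, and the cap-binding Eif4e3 rose. On control diet 3 of the 10 tested genes were called lower and 2 higher, and after ethanol 4 lower and 1 higher. Over all genes, 4.91% were called lower and 7.40% higher on control diet, and 19.1% and 19.6% after ethanol. The eIF4F counts are to be read against these shares. With total counts in place of TMM factors, 0 of the 10 were called lower and 2 higher on control diet. After ethanol 2 were then called lower and 3 higher. Eif4a2, an eIF4A helicase, had 144, 157, 137 and 138 CPM in KO-ctr livers, against 253, 211, 190.3 and 199 CPM in WT-ctr livers (log2 -0.57 ± 0.13, adjusted p = 0.0107). It had 131, 88.8, 97.9 and 104 CPM in KO-EtOH livers, against 197, 145, 186 and 155 CPM in WT-EtOH livers (log2 -0.70 ± 0.13, adjusted p = 8.35e-04). Neither pair overlapped. Eif4a2 shares exon bases with Rfc4 on the other strand and with Snora81, Snord2 and other genes on the same strand, so its level is uncertain too. Its paralog Eif4a1 had 52.3 CPM in KO-ctr against 57.7 CPM in WT-ctr livers and 64.9 CPM in KO-EtOH against 66.5 CPM in WT-EtOH livers (adjusted p = 0.394 and 0.807). Eif4a1 is an uncertain value, since a processed pseudogene, Eif4a-ps4, drew 294 to 435 counts a library against 834 to 1421 for Eif4a1. Eif4b and Eif4h, both of which stimulate the helicase, fell by 0.53 and 0.29 on the log2 scale on control diet (adjusted p = 0.0146 and 0.0301) and by 0.43 and 0.45 after ethanol (adjusted p = 0.0163 and 6.22e-04). With single libraries left out, the Eif4b calls were lost in 3 settings on control diet and 2 after ethanol (adjusted p up to 0.0596), and the control diet call of Eif4h in 6 (adjusted p up to 0.101).

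Eif4e3, a cap-binding relative of eIF4E, was the member that rose most. It had 11.8, 11, 7.79 and 13.6 CPM in KO-ctr livers, against 5.85, 5.65, 5.10 and 3.72 CPM in WT-ctr livers, a 2.17-fold difference (log2 1.12 ± 0.21, adjusted p = 0.00248). In KO-EtOH livers it had 15.6, 16.5, 10.5 and 14.3 CPM, against 3.46, 6.06, 5.89 and 4.73 CPM in WT-EtOH livers, a 2.83-fold difference (log2 1.50 ± 0.21, adjusted p = 7.62e-05). Neither pair overlapped, and both calls passed in every alternative run. Eif4e3 shares exon bases on the same strand with Gm20696 in the GENCODE M21 annotation, and how the authors' counting assigned such reads is not known from the sources used here. Eif4e3 had 64 to 291 counts a library, and the summed macrophage and cholangiocyte markers given above were also higher on average in both knockout groups than in the wild types on the same diet. Their part in this difference was not tested. Eif4g3, a relative of the scaffold Eif4g1, had 75.1, 73.1, 83.6 and 73.7 CPM in KO-ctr livers, against 47.3, 56.1, 64.9 and 58.8 CPM in WT-ctr livers (log2 0.43 ± 0.12, adjusted p = 0.0277). These groups did not overlap, but the call was lost without KO-ctr 1, 3 or 4 or WT-ctr 1, 2 or 4 (adjusted p = 0.0505 to 0.0846). After ethanol it had 87, 117, 89.7 and 97.7 CPM in KO-EtOH livers, against 81.4, 68.9, 79.4 and 94 CPM in WT-EtOH livers, which overlapped and did not pass (adjusted p = 0.0796).

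The canonical cap-binding protein and scaffold did not pass. Eif4e had 37.8, 37.5, 39.4 and 36.2 CPM in KO-ctr livers, against 39.1, 34.9, 40.7 and 36.7 CPM in WT-ctr livers (adjusted p = 0.982), and 43.2, 47.1, 49.2 and 50.6 CPM in KO-EtOH livers, against 39.6, 40.6, 49.6 and 50.8 CPM in WT-EtOH livers (adjusted p = 0.57). The libraries of each pair lay among each other. Eif4g1 had 509 CPM in KO-ctr against 522 CPM in WT-ctr livers and 430.5 CPM in KO-EtOH against 477 CPM in WT-EtOH livers (log2 -0.04 ± 0.11 and -0.15 ± 0.11, adjusted p = 0.873 and 0.293), and with total counts both estimates turned to 0.08 and 0.04. Eif4g2, a scaffold that lacks the eIF4E-binding part, had 556, 556, 471 and 482 CPM in KO-ctr livers, against 505, 616, 597 and 601 CPM in WT-ctr livers (adjusted p = 0.397). After ethanol it had 538, 591, 482 and 558 CPM in KO-EtOH livers, against 702, 564, 672 and 741 CPM in WT-EtOH livers, overlapping groups with an adjusted p of 0.0489 that was lost in 14 of the 16 settings that left out a library.

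**Figure D3:**
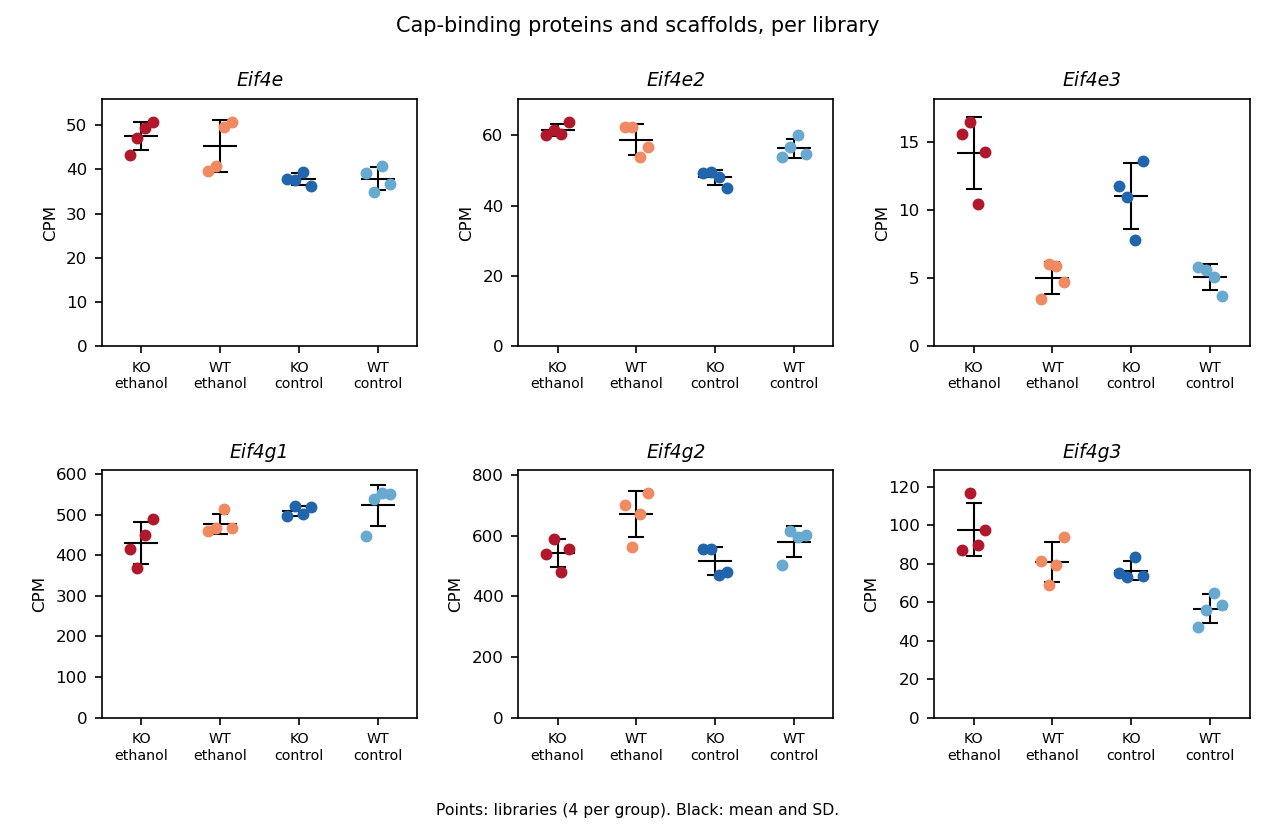
TMM-scaled CPM (y axis, from 0) of 3 cap-binding proteins and 3 scaffolds of eIF4F, 1 point per library, with the group mean and SD in black. Eif4e3 is the panel in which knockout and wild type libraries are apart on both diets; Eif4e and Eif4g1 overlap between genotypes.

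Of the 4 genes for eIF1 and eIF1A, 1 was called lower on control diet and 4 after ethanol. Over all genes 4.91% and 19.1% were called lower. With total counts 0 and 2 of the 4 were called lower. Eif1, which guards start codon choice, had 137, 132, 138 and 138 CPM in KO-ctr livers, against 218, 149, 171 and 170.5 CPM in WT-ctr livers, with no overlap (log2 -0.38 ± 0.12, adjusted p = 0.049). That call was lost in 12 settings that left out a library. After ethanol Eif1 had 154, 129, 139 and 153 CPM in KO-EtOH livers, against 247, 182, 227 and 229 CPM in WT-EtOH livers, again with no overlap (log2 -0.62 ± 0.12, adjusted p = 9.03e-04). Its paralog Eif1b and the X-linked Eif1ax fell after ethanol by 0.27 and 0.30 on the log2 scale, and the autosomal Eif1a by 1.22. The Eif1b and Eif1ax calls were lost in 11 and 3 settings that left out a library.

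None of the 8 genes for eIF2 and its exchange factor eIF2B was called on control diet by edgeR or DESeq2, and 2 had an unadjusted p under 0.05. With 4.91% of all genes called lower and 7.40% higher there, this count was near the background. Eif2s2, the beta subunit of eIF2, had 68.9, 68.6, 58.2 and 61.7 CPM in KO-ctr livers, against 83.4, 71, 67.7 and 75.5 CPM in WT-ctr livers, and 75.5, 69.8, 59.1 and 78.6 CPM in KO-EtOH livers, against 81.3, 79.8, 69.4 and 98.7 CPM in WT-EtOH livers. The groups overlapped on both diets (adjusted p = 0.275 and 0.148). After ethanol 3 of the 8 were called lower, where 19.1% of all genes were, and 1 with total counts. Eif2b3, the gamma subunit of eIF2B, had 13.5, 13.3, 12 and 13.1 CPM in KO-EtOH livers, against 19.9, 20.1, 23.1 and 28.8 CPM in WT-EtOH livers (log2 -0.82 ± 0.14, adjusted p = 2.58e-04), with no overlap. Eif2b4 and the alpha subunit Eif2s1 fell by 0.42 and 0.28 on the log2 scale (adjusted p = 0.0294 and 0.0299), with calls lost in 5 and 4 settings that left out a library. Eif2s3x, the gamma subunit, had only 82 to 135 counts a library, and its near-identical Y-linked copy Eif2s3y had 759 to 1431, so the split of reads between them is uncertain.

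Of the 5 genes for eIF5, eIF5A, eIF5B and eIF6, none was called on control diet by edgeR, where 3 had an unadjusted p under 0.05 and DESeq2 called 1. The edgeR count was near the background of 4.91% lower and 7.40% higher over all genes. Eif5, which triggers GTP hydrolysis on eIF2, had 288, 279.7, 188 and 230.0 CPM in KO-ctr livers, against 309.5, 329, 279 and 319.8 CPM in WT-ctr livers, and 289.8, 255, 222 and 329 CPM in KO-EtOH livers, against 384, 291, 386 and 335 CPM in WT-EtOH livers. Both pairs overlapped (log2 -0.33 ± 0.15 and -0.35 ± 0.15, adjusted p = 0.174 and 0.0737). Eif5a, the hypusine-bearing factor that relieves ribosome stalls, averaged 251 ± 16.1 CPM in KO-ctr and 292 ± 12.6 CPM in WT-ctr livers (SD, n = 4 each; adjusted p = 0.151). After ethanol Eif6, which keeps free large ribosomal subunits from joining small ones, had 74, 99.8, 70.4 and 66.7 CPM in KO-EtOH livers, against 114, 117, 95.4 and 158 CPM in WT-EtOH livers, where 1 library of each group overlapped (log2 -0.64 ± 0.14, adjusted p = 0.0024). Eif5b, the subunit-joining GTPase, rose by 0.32 on the log2 scale after ethanol, to 144 CPM in KO-EtOH against 115 CPM in WT-EtOH livers (adjusted p = 0.0121). That call was lost without KO-EtOH 1 and 2 together.

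Among the 8 tested members outside these complexes, edgeR and DESeq2 called none on control diet, with 2 at an unadjusted p under 0.05, and 5 lower after ethanol. Over all genes edgeR called 4.91% and 19.1% lower. With total counts 0 of the 8 were called lower after ethanol. Eif2a, an alternative carrier of initiator tRNA, had 39.9, 45, 41.7 and 44 CPM in KO-ctr livers, against 56.9, 47.7, 48 and 44.3 CPM in WT-ctr livers (adjusted p = 0.16), and 44.7, 38.1, 45.1 and 44.7 CPM in KO-EtOH livers, against 48, 53.8, 53.7 and 51.4 CPM in WT-EtOH livers (log2 -0.26 ± 0.09, adjusted p = 0.0321). The KO-EtOH and WT-EtOH libraries did not overlap, yet the call was lost in 7 settings that left out a library. The other 4 were Eif1ad, Eif4a3 of the exon junction complex, Eif4enif1, which binds eIF4E and carries it into the nucleus, and Eef1e1, and they fell by 0.46, 0.39, 0.38 and 0.44 on the log2 scale.

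In wild type livers 11 members were called higher and 2 lower, where 17.6% of all genes were called higher and 15.9% lower, so the members' count of higher calls was near the background. Of the macrophage markers, 1 of 8 was called higher and 6 lower in this comparison, and their part in the members' values was not tested. In knockout livers 4 members were called higher and 2 lower, where 7.00% of all genes were called higher and 7.11% lower, again near the background. The median log2 fold change over the members was 0.09 in wild type and 0.05 in knockout livers, against -0.01 and 0.00 over all genes. With total counts the median of all genes moved to -0.14 in wild type and -0.05 in knockout livers. The members called were then 5 higher and 6 lower in wild type, and 0 higher and 2 lower in knockout livers, and the share of higher calls among all calls was 34.5% and 39.7%, against 52.5% and 49.6% with TMM. The number called higher in wild type livers was 8 to 11 with single libraries left out, and the number called lower 0 without WT-ctr 1, 1 without WT-ctr 3 and 4 without WT-ctr 2. In knockout livers the number called higher was 1 without KO-ctr 2 or KO-ctr 4, 2 without KO-ctr 1, KO-ctr 3, KO-EtOH 3 or KO-EtOH 4, and 7 without WT-EtOH 4. The number called lower there was 0 without KO-ctr 2, KO-EtOH 3 or KO-EtOH 4, and 1 without KO-ctr 1, KO-ctr 4, KO-EtOH 2 or WT-ctr 4. The compared groups did not overlap for 10 higher and 3 lower members in wild type, and for 9 and 4 in knockout livers. Over all 14346 genes this held for 2253 higher and 2187 lower in wild type, and 1426 and 1585 in knockout livers. The ethanol comparisons use the same libraries as the Tsc1-loss comparisons, so a high WT-EtOH level enters both.

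Eif1a changed most with ethanol in wild type livers. It had 133, 181, 120.1 and 304 CPM in WT-EtOH livers, against 55.3, 62.8, 88 and 62 CPM in WT-ctr livers (log2 1.46 ± 0.24, adjusted p = 3.45e-04). It had 90.7, 86, 69.7 and 70.9 CPM in KO-EtOH livers, against 47.4, 51.8, 67 and 54.4 CPM in KO-ctr livers (log2 0.52 ± 0.24, adjusted p = 0.154). Both pairs were apart, the wild type rise was 2.75-fold with WT-EtOH library 4 highest, and the knockout difference did not pass. Eif6 had 114, 117, 95.4 and 158 CPM in WT-EtOH livers, against 75, 72.4, 76.1 and 66.4 CPM in WT-ctr livers (log2 0.74 ± 0.14, adjusted p = 9.08e-04). It had 74, 99.8, 70.4 and 66.7 CPM in KO-EtOH livers, against 53.6, 56.4, 62.2 and 59.2 CPM in KO-ctr livers (log2 0.43 ± 0.14, adjusted p = 0.0552). The ethanol libraries were the higher ones in both genotypes with no overlap, and the wild type comparison passed.

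Eif4enif1 had 38.2, 35.4, 35.8 and 47.2 CPM in WT-EtOH livers, against 22.9, 28.9, 22.8 and 26.8 CPM in WT-ctr livers (log2 0.62 ± 0.12, adjusted p = 7.41e-04). Eif2b3 had 19.9, 20.1, 23.1 and 28.8 CPM in WT-EtOH livers, against 13.9, 14.1, 19.1 and 14.9 CPM in WT-ctr livers (log2 0.57 ± 0.14, adjusted p = 0.0039). Eif4g3 had 81.4, 68.9, 79.4 and 94 CPM in WT-EtOH livers, against 47.3, 56.1, 64.9 and 58.8 CPM in WT-ctr livers (log2 0.51 ± 0.12, adjusted p = 0.00381). None of these 3 pairs of groups overlapped, and the calls of Eif1a, Eif6, Eif4enif1, Eif2b3 and Eef1e1 passed in every alternative run, that of Eif4g3 in all but total counts. In knockout livers the same genes did not pass: Eif4enif1 had 30.1 CPM in KO-EtOH against 26.1 CPM in KO-ctr livers, Eif2b3 13 against 12.4 CPM and Eif4g3 97.8 against 76.4 CPM (adjusted p = 0.252, 0.805 and 0.0557). Eef1e1, Eif2d, Eif3j1, Eif3a, Eif1 and Eif4e made up the other 6 higher calls in wild type livers, with log2 fold changes of 0.53, 0.32, 0.33, 0.27, 0.32 and 0.25. The calls of Eif3a, Eif1 and Eif4e were lost in 12 or 13 settings that left out a library. Eif4b and Eif2b5, the catalytic epsilon subunit of eIF2B, fell by 0.46 and 0.25 (adjusted p = 0.0135 and 0.0335), both calls being lost without WT-ctr 1 and in other settings for Eif2b5.

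**Figure D4:**
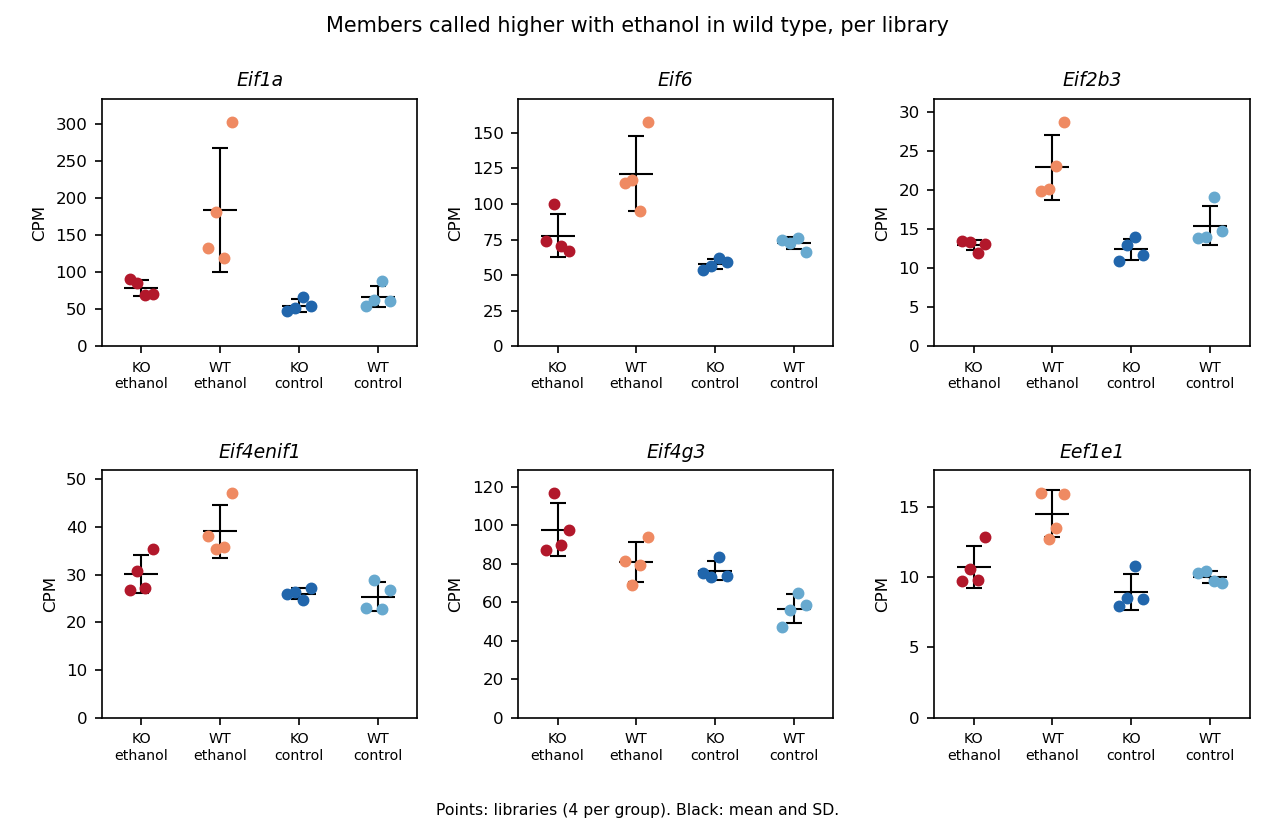
TMM-scaled CPM (y axis, from 0) of 6 members called higher with ethanol in wild type livers, 1 point per library, with the group mean and SD in black. WT-EtOH libraries lie above all WT-ctr libraries in every panel, and in every panel except Eif4g3 their mean lies above the KO-EtOH mean.

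The 6 ethanol calls in knockout livers, a count near the background, included 4 genes of eIF4F. With total counts 0 genes of eIF4F were called higher and 1 lower. None of the 6 calls passed in every alternative run, and only that of Eif4e2 passed in all but total counts. Eif4e2, a cap-binding protein that can repress translation, had 60.1, 61.5, 60.4 and 63.9 CPM in KO-EtOH livers, against 49.2, 49.6, 48.3 and 45 CPM in KO-ctr livers, with no overlap (log2 0.36 ± 0.08, adjusted p = 0.00695). Eif4e had 43.2, 47.1, 49.2 and 50.6 CPM in KO-EtOH livers, against 37.8, 37.5, 39.4 and 36.2 CPM in KO-ctr livers (log2 0.33 ± 0.10, adjusted p = 0.0287), and Eif3j1 21.9, 18.6, 21.6 and 22.9 CPM in KO-EtOH, against 18.1, 16.1, 16.9 and 17.6 CPM in KO-ctr livers (log2 0.31 ± 0.09, adjusted p = 0.027). The groups were apart for both genes, and their calls were lost in 5 and 6 settings that left out a library. Eif4a1 rose by 0.31 and Eif4a2 fell by 0.45 on the log2 scale (adjusted p = 0.0475 and 0.0326), with calls lost in 10 and 7 such settings. Eef1b2 fell by 0.45, to 84.8 CPM in KO-EtOH against 116 CPM in KO-ctr livers (adjusted p = 0.0204), a call lost without KO-ctr 2, KO-EtOH 3 or KO-EtOH 4 (adjusted p = 0.0615 to 0.0693). The 4 calls other than Eif3j1 and Eif4e were not shared with the wild type comparison. Eef2 had 871 CPM in KO-EtOH against 1043 CPM in KO-ctr livers (log2 -0.26 ± 0.10, adjusted p = 0.0934), and 1568 CPM in WT-EtOH against 1574 CPM in WT-ctr livers (log2 -0.01 ± 0.10, adjusted p = 0.974), a wild type estimate that changed sign without WT-ctr 1 (0.04).

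**Figure D5:**
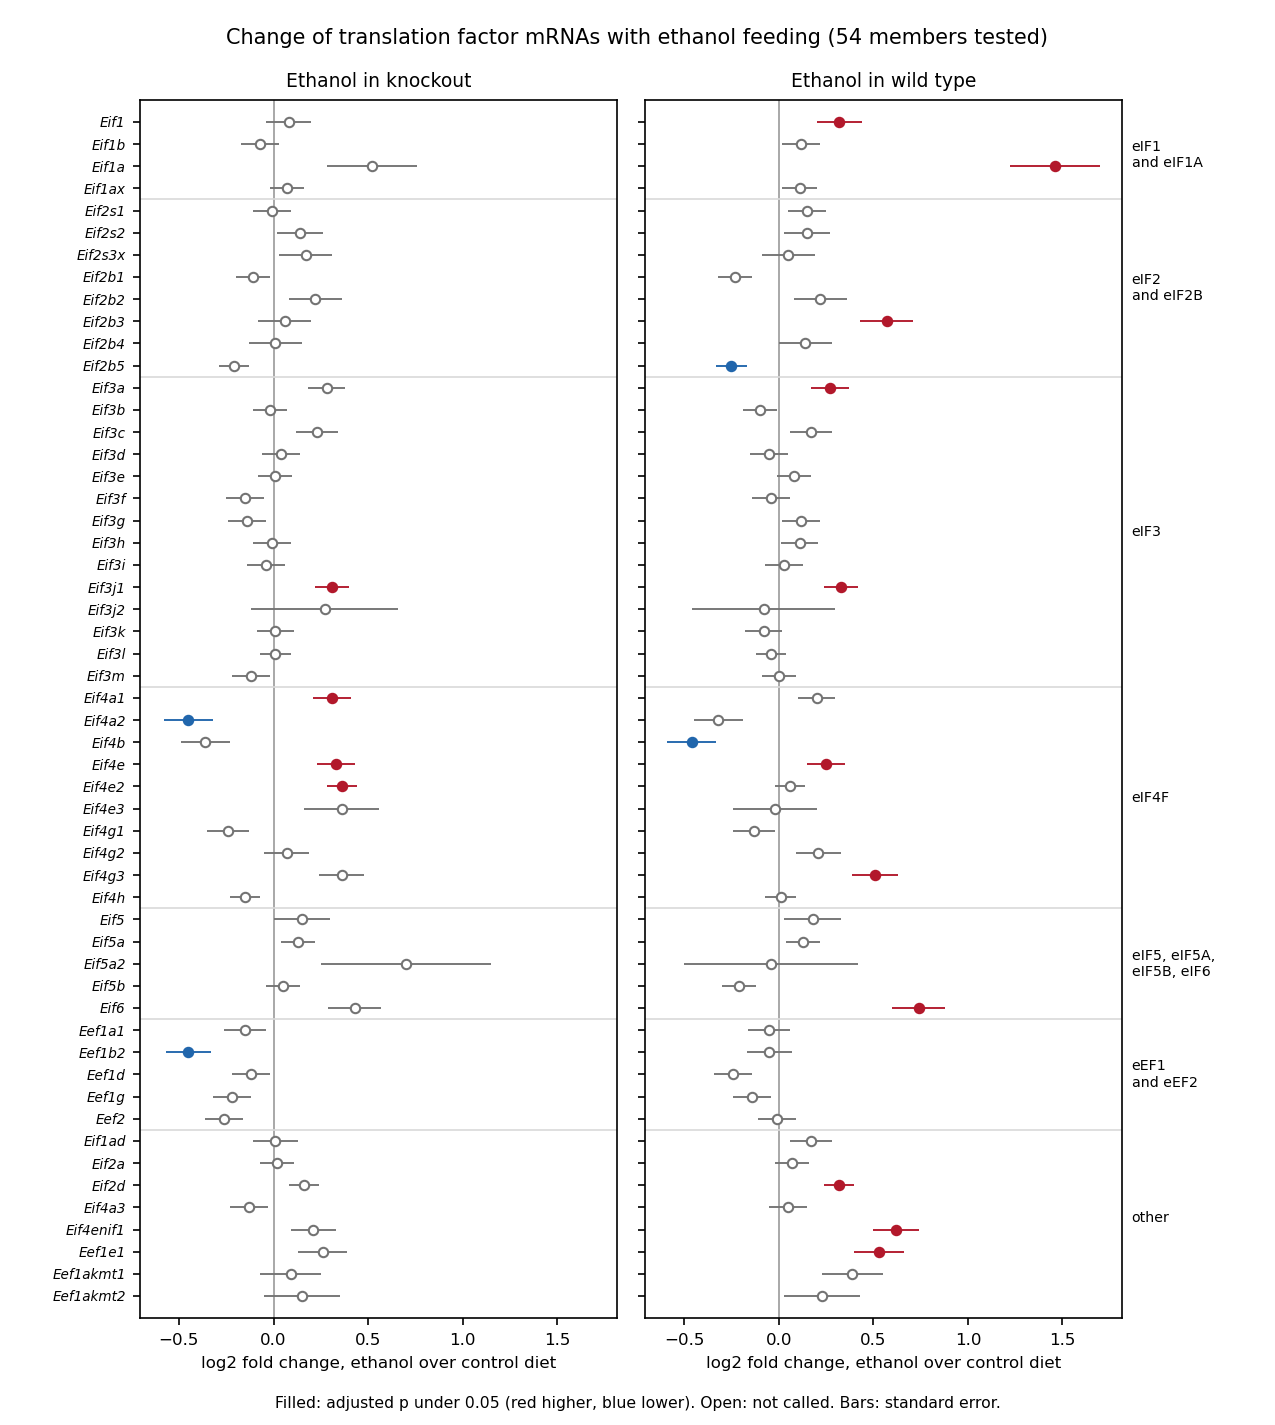
Log2 fold change (ethanol over control diet, x axis) of each of the 54 tested members, grouped by complex, in knockout livers (left) and wild type livers (right). Points are edgeR estimates with their standard errors, and filled points have an adjusted p under 0.05; Eif1a lies farthest right in wild type livers, and points of eEF1 and eEF2 lie at or left of 0 in both panels.

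The difference between the ethanol responses of knockout and wild type livers was tested as an interaction, and edgeR called no member in either direction, where 0.523% of all genes were called higher and 1.28% lower. DESeq2 also called 0 members, and 5 members had an unadjusted p under 0.05. They were Eif1a (log2 difference of the responses, knockout minus wild type, -0.94 ± 0.34, adjusted p = 0.149), Eif2b3 (-0.51 ± 0.19, 0.165), Eif4enif1 (-0.42 ± 0.17, 0.183), Eef1b2 (-0.40 ± 0.17, 0.211) and Eif4e2 (0.29 ± 0.11, 0.161). A call in wild type and none in knockout livers is therefore not a shown difference between the genotypes for any of these members.

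Pairs of paralogs were also compared within each library by the log2 ratio of their counts (pseudocount 0.5). With 7 pairs and 4 comparisons there were 28 two-sided exact permutation tests of 4 against 4 libraries, whose smallest possible p is 0.0286. That p was reached by 11 tests and none had an adjusted p under 0.05. With 28 tests and this smallest p, an adjusted p under 0.05 could hardly be reached. The lack of calls therefore does not show that the ratios were alike. The Eif4a1 to Eif4a2 ratio was 0.620 in KO-EtOH against 0.389 in WT-EtOH livers and 0.363 in KO-ctr against 0.273 in WT-ctr livers (geometric means, exact permutation p = 0.0286 and adjusted p = 0.0727 for each, n = 4 per group). The Eif1a to Eif1ax ratio was 2.08 in KO-EtOH against 3.67 in WT-EtOH livers (exact permutation p = 0.0286) and 1.51 in KO-ctr against 1.51 in WT-ctr livers (exact permutation p = 0.971). The Eif4g1 to Eif4g3 ratio was 4.40 in KO-EtOH against 5.93 in WT-EtOH livers and 6.67 in KO-ctr against 9.22 in WT-ctr livers, with ranges on control diet of 5.99 to 7.13 in KO-ctr and 8.52 to 9.61 in WT-ctr libraries.

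Of 30 genes that control these factors, 3 were called higher and 2 lower with Tsc1 loss on control diet (7.40% and 4.91% of all genes), and 6 higher and 7 lower after ethanol (19.6% and 19.1% of all genes). These counts were near the background. Pdcd4, an inhibitor of the eIF4A helicase, had 122, 118, 133 and 153 CPM in KO-ctr livers, against 78.4, 71.6, 88.1 and 92.5 CPM in WT-ctr livers (log2 0.67 ± 0.13, adjusted p = 0.00235), and 82.8, 71.9, 83.9 and 79.7 CPM in KO-EtOH livers, against 43.3, 51.6, 50.3 and 65.9 CPM in WT-EtOH livers (log2 0.59 ± 0.13, adjusted p = 0.00174). Eif4ebp1, the eIF4E-binding repressor that mTORC1 inactivates, had 92.7, 80.1, 89.8 and 86.1 CPM in KO-ctr livers, against 63.6, 57.2, 49.1 and 50.7 CPM in WT-ctr livers (log2 0.66 ± 0.14, adjusted p = 0.00431), and 129.5, 138, 140.3 and 120.0 CPM in KO-EtOH livers, against 91.8, 67.5, 78.1 and 115 CPM in WT-EtOH livers (log2 0.58 ± 0.13, adjusted p = 0.00302). Both genes were higher in the knockouts with no overlap on either diet. Mknk2, a kinase of eIF4E, rose on control diet to 226 CPM in KO-ctr against 121 CPM in WT-ctr livers (adjusted p = 0.0113). Eef2k, the kinase that inhibits eEF2, rose after ethanol to 14.3 CPM in KO-EtOH against 7.70 CPM in WT-EtOH livers (log2 0.89 ± 0.15, adjusted p = 4.02e-04). Dph1 and Dph5, which take part in making the diphthamide of eEF2, were among the lower ones. Dph1 fell by 0.50 on the log2 scale on control diet (adjusted p = 0.0223, lost in 5 settings that left out a library), and Dph5 by 0.84 after ethanol (adjusted p = 3.30e-04). Larp4, an RNA-binding protein that binds poly(A) and its binding protein, fell by 0.64 after ethanol (adjusted p = 3.57e-04).

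With ethanol, 8 regulators were called higher and 4 lower in wild type, and 3 higher and 3 lower in knockout livers, where 17.6% and 15.9% of all genes were called higher and lower in wild type, and 7.00% and 7.11% in knockout livers. Trib3, a target of the eIF2 stress pathway, had 203, 33.3, 74.4 and 157 CPM in WT-EtOH livers, against 9.02, 6.87, 4.12 and 3.14 CPM in WT-ctr livers (log2 4.33 ± 0.63, adjusted p = 1.88e-04). It also rose in knockout livers, to 44.7 CPM in KO-EtOH against 10.9 CPM in KO-ctr livers (log2 2.04 ± 0.57, adjusted p = 0.03, lost in 5 settings that left out a library), and the interaction did not pass (adjusted p = 0.146). Mknk2 rose to 399 CPM in WT-EtOH against 121 CPM in WT-ctr livers, and Eef2k fell to 7.70 CPM in WT-EtOH against 14.6 CPM in WT-ctr livers (adjusted p = 3.13e-05 and 3.09e-04). Pdcd4 fell with ethanol by 0.65 in wild type and by 0.72 in knockout livers on the log2 scale, and Eif4ebp1 rose by 0.67 and 0.60. Eif4ebp3, another eIF4E-binding repressor, rose in knockout livers to 35.8 CPM in KO-EtOH against 7.67 CPM in KO-ctr livers (log2 2.22 ± 0.51, adjusted p = 0.0122). In wild type livers it rose to 10.6 CPM in WT-EtOH against 3.60 CPM in WT-ctr livers (log2 1.56 ± 0.54, adjusted p = 0.0389, lost in 6 settings that left out a library), and the interaction did not pass (adjusted p = 0.67).

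Of 14 termination, recycling and poly(A)-binding factors, edgeR called none with Tsc1 loss on control diet, where 3 had an unadjusted p under 0.05 and DESeq2 called 2, and after ethanol 1 was called higher and 6 lower. Ddx3x, a helicase that aids initiation on structured mRNAs, fell to 148 CPM in KO-EtOH against 274 CPM in WT-EtOH livers (log2 -0.89 ± 0.15, adjusted p = 3.71e-04), and Pabpc4, a poly(A)-binding protein, to 28.1 CPM in KO-EtOH against 38.7 CPM in WT-EtOH livers (adjusted p = 0.00152). The helicase gene Dhx29 was the higher one, at 15.5 CPM in KO-EtOH against 9.27 CPM in WT-EtOH livers (adjusted p = 0.00173). With ethanol 3 of the 14 were called higher and 2 lower in wild type, and 1 higher and 0 lower in knockout livers, where Denr was the higher one. Of 10 tested mitochondrial translation factors, edgeR and DESeq2 called none on control diet, with 2 at an unadjusted p under 0.05, and edgeR called 3 lower after ethanol. All genes were also called more often after ethanol, with 19.1% lower there and 4.91% lower on control diet, and these counts are to be read against that background. Mtif2, the mitochondrial initiation factor that delivers the initiator tRNA, fell to 24.3 CPM in KO-EtOH against 36.5 CPM in WT-EtOH livers with Tsc1 loss after ethanol (log2 -0.59 ± 0.10, adjusted p = 2.51e-04), and with ethanol in knockout livers by 0.42 on the log2 scale (adjusted p = 0.01). With ethanol 1 of the 10 was called higher and 1 lower in wild type, and 0 higher and 3 lower in knockout livers. For both lists the ethanol counts stand beside 17.6% of all genes called higher and 15.9% lower in wild type livers. In knockout livers these shares were 7.00% and 7.11%.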

How the data were processed

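PolyA mRNA from snap-frozen livers was sequenced as stranded libraries with single 75 bp reads, per the labels' protocols. The submitters' processing notes name Trimmomatic 0.36, HISAT2 2.1.0, HTSeq and the GRCm38 build; HTSeq's strand and multi-mapping options are not stated there. The authors deposited raw read counts per gene, not normalized. The 7436 table entries with no gene symbol held 0.227 to 0.479% of the counts and entered neither library sizes nor tests. No library pair held identical values.

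The members and lists were chosen with earlier results of these data known. Genes passing edgeR's filterByExpr (14346) entered 1 quasi-likelihood model of the 16 libraries by group (edgeR 4.0.16 and limma 3.58.1 in R 4.3.3, TMM scaling, a biological coefficient of variation of 0.205 and 12 residual degrees of freedom), with Benjamini-Hochberg adjustment over all genes tested and a threshold of 0.05. The scripts were tested on simulated data. Alternatives were DESeq2 1.42.0, DESeq2 size factors or total counts in edgeR, no count filter, fits of only the groups compared, a replicate block, each library left out, and KO-EtOH libraries 1 and 2 left out together. Members were shown by library if they were among the 5 called members with the smallest p in a comparison. Such a member needed a mean of at least 2 CPM. Members with the highest mean CPM of their complex were shown too. A choice by small p favours groups free of overlap among the genes shown. Of related lists up to 4 called genes with the smallest p per comparison were named. Intervals and tests at 14750420 to 21757100 counts a library cover these libraries only. Exon lengths and overlaps are from GENCODE M21, and start-site sequences from RefSeq; not every member's sequence is reported here.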

Additional observations from a re-analysis of the deposited data

Results flagged for a closer look

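Among 92 groups of 4 libraries examined for the genes shown library by library, 3 had a single library whose gap to the nearest other exceeded Dixon's critical value of 0.829, and chance alone marks about 1 in 20 groups. Eif2a was lowest in KO-EtOH library 2, at 38.1 CPM against 44.7 to 45.1 CPM in the other KO-EtOH libraries (gap over range 0.941). Eef1a1 was lowest in KO-ctr library 3, at 1169 CPM against 1308 to 1334 CPM in the other KO-ctr libraries (0.843). Eef1b2 was highest in WT-ctr library 1, at 207 CPM against 162 to 166 CPM in the other WT-ctr libraries (0.915). The call of Eef1a1 on control diet was lost without KO-ctr 3, that of Eif2a after ethanol was lost without KO-EtOH 2, and that of Eef1b2 on control diet passed without WT-ctr 1.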

How the results depend on the processing

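With total counts in place of TMM, the sign of some members' estimates changed, with 14 members above 0 on control diet against 4 with TMM, 19 against 6 after ethanol, 21 against 35 with ethanol in wild type and 26 against 34 in knockout livers. Among the values of the single genes named in the text (most of them called, regulators and Tsc1 included), 3353 kept their direction and side of the threshold, 492 lost the call, 32 gained it and 5 reversed. With total counts, 2 members were called lower on control diet (250 of all genes), 4 higher and 11 lower after ethanol (1243 of all genes lower), 5 higher and 6 lower with ethanol in wild type (1592 of all genes higher), and 0 higher with ethanol in knockout livers (611 of all genes higher), and the interaction gave 31 higher and 70 lower genes; the Eif4g1 estimates turned to 0.08 on control diet and 0.04 after ethanol. With no filter on low counts, which adds genes to the adjustment, 8 members were lower on control diet, 7 higher and 1 lower with ethanol in wild type, and 1 higher and 1 lower in knockout livers. DESeq2 called 7 members higher with ethanol in knockout livers, and 292 genes higher and 439 lower for the interaction. With only the groups compared in the fit, 1 member was lower with ethanol in wild type; the interaction needs all groups and has no such fit. Without both KO-EtOH libraries 1 and 2, 1 member was higher after ethanol, and the interaction gave 44 and 72 genes. Except where named, the cause was not tested. With each library left out, members called higher and lower numbered 1 to 2 and 7 to 15 on control diet, 2 to 3 and 19 to 30 after ethanol, 8 to 11 and 0 to 4 with ethanol in wild type, 1 to 7 and 0 to 3 in knockout livers, and 0 to 0 for the interaction. All genes called ran 720 to 1307 and 371 to 860, 2460 to 2917 and 2283 to 2767, 2031 to 2723 and 1810 to 2503, 544 to 1149 and 570 to 1145, and 10 to 163 and 42 to 332 for these comparisons in that order. Eef2 with ethanol in wild type ran from -0.04 to 0.04, above 0 without WT-ctr 1 (0.04) and WT-EtOH 1 or 3 (0.01), and the Eif5a to Eif5a2 log2 ratio difference from -0.15 (without WT-EtOH 3) to 0.41, with -0.13 without WT-ctr 2 and -0.02 without WT-ctr 4. Paralog ratios gave 0 adjusted calls in every setting, which 4 against 4 libraries could hardly reach. A replicate block gave 2 higher and 12 lower members on control diet, 2 and 27 after ethanol, 10 and 2 with ethanol in wild type, 4 and 2 in knockout livers, and 0 and 0 for the interaction; the shared numbers are not known to pair the libraries, and 7 of 24 same-number correlations of deviations exceeded 0.1 (range -0.15 to 0.41). Members with few counts, such as Eif5a2 with 4 to 20 and Eif3j2 with 12 to 68 a library, gave wide errors.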
